A study of Mus musculus with 20 samples.

Results

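TFIIIC regions that were called in wild-type fibroblasts and not in Rb1L/L fibroblasts were examined where condensin II was called in both genotypes. The peak lists of the 4 TFIIIC libraries were merged on chromosomes 1 to 19 wherever peaks shared at least 1 bp, which gave 423013 regions. A region was taken as WT-only when both wild-type (WT) libraries had a peak in it and neither Rb1L/L library did. It was kept when it overlapped a stable condensin II region, a place where the same condensin II subunit had a peak in both genotypes. This left 1098 regions. The calls of the TFIIIC and condensin II libraries chose these regions, so their presence and absence there is a description and not a finding.

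The data are chromatin immunoprecipitation followed by sequencing (ChIP-seq) from mouse embryonic fibroblasts of the C57BL/6 strain, prepared from E13.5 embryos and used while proliferating at passage 4. WT cells were compared with Rb1L/L cells, in which both copies of the gene for the retinoblastoma protein pRb carry the L allele. TFIIIC was precipitated with an antibody to its subunit TFIIIC-220 from cells fixed with 1% formaldehyde, in 2 libraries per genotype, titled dL for Rb1L/L. The condensin II subunits CAP-D3 and CAP-H2 (1 library each per genotype) and the histone mark H3K27me3 (2 libraries per genotype) were precipitated from cells fixed with 2 mM EGS, a long-arm protein crosslinker, and then formaldehyde. The labels do not say how many embryos or cultures stand behind a library, and peak lists give no marker genes with which to check the cell type.

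TFIIIC is the factor that recognises the internal promoter of tRNA genes and brings in the rest of the RNA polymerase III machinery, and it also sits at sites without that polymerase. In yeast, TFIIIC sites are known places of condensin loading. Condensin II is a ring-shaped complex that folds chromosomes and is in the nucleus throughout the cell cycle, with CAP-D3 and CAP-H2 as subunits of its non-SMC part. pRb restrains cell-cycle genes and also binds chromatin proteins through its LXCXE-binding cleft, which the L allele disrupts. By its title, the study asks how pRb brings condensin II to promoters. Regions are given by mm9 position alone, since the gene tables at hand are of another build.

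The TFIIIC lists held 200350 and 239960 peaks in WT and 294135 and 301874 in Rb1L/L, and covered 152 and 194 Mb against 270 and 276 Mb. The Rb1L/L lists were thus the longer and broader ones, and a WT-only region lies in a gap of lists that cover more of the genome. The read depth is unknown. Each peak's score has no name and was read as that of the peak caller MACS, which comes from a p-value. It ranks peaks within its own list.

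TFIIIC calls of 1 genotype alone were distributed differently at stable condensin II from elsewhere. Of all 423013 merged regions, 1.66% were WT-only and 9.49% were called in both Rb1L/L and no WT library (Rb1L/L-only). Of the 17558 merged regions that overlapped stable condensin II, 6.25% were WT-only (1098 regions) and 3.89% were Rb1L/L-only (683 regions). WT-only regions thus outnumbered Rb1L/L-only regions 1.61 to 1 at stable condensin II, whereas away from it there were 6.66 Rb1L/L-only regions for each WT-only one. Each of the 4 pairs of 1 WT and 1 Rb1L/L library alone had 426 to 524 regions at stable condensin II, and 11468 to 16629 over all merged regions. Each such pair was thus rarer than the WT-only class of 1098 at stable condensin II and more frequent than the 7027 WT-only regions overall. A further 4632 at stable condensin II were called in all 4 libraries (26.4%, against 17.9% of all merged regions). The 1.61 to 1 order was not stable. It became 872 against 878 when peaks up to 1 kb apart were merged, 1742 against 1787 without Rb1L/L library 1, and 1722 against 1683 without Rb1L/L library 2. Leaving out an Rb1L/L library asks for a peak in both WT libraries but in a single Rb1L/L library, so the classes are then not held to equal terms.

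Split by subunit, WT-only regions outnumbered Rb1L/L-only ones where CAP-D3 was stable. Both subunits were stable at 506 of the 1098 regions (46.1%, 95% exact binomial interval 43.1 to 49.1), CAP-D3 alone at 143 (13.0%, 11.1 to 15.2) and CAP-H2 alone at 449 (40.9%, 38.0 to 43.9). CAP-D3 was therefore at 59.1% of them (56.1 to 62.0), against 31.8% (30.5 to 33.2) of the TFIIIC regions of all 4 libraries at stable condensin II and 16.8% (14.1 to 19.9) of the Rb1L/L-only ones. The intervals do not overlap, although the difference between these classes was not tested and the intervals cover counting error alone. Regions of all 4 libraries were also wider, with a median of 2007 bp against 936 bp for the WT-only and 851 bp for the Rb1L/L-only regions. At regions of both subunits, 506 WT-only regions stood against 41 Rb1L/L-only ones, a ratio of 12.3. That ratio stayed above 1 under each alternative tried, with a lowest value of 4.22 (380 against 90) when peaks up to 1 kb apart were merged. It was 7.75 and 8.79 without WT library 1 or 2, and 5.01 and 4.61 without Rb1L/L library 1 or 2. Leaving out a WT library asks for a peak in a single WT library but in both Rb1L/L libraries. None of these values holds the classes to equal terms. At CAP-D3 alone, 143 WT-only regions stood against 74 Rb1L/L-only ones. At CAP-H2 alone it was 449 against 568, a smaller surplus of Rb1L/L-only regions than the 6.66 to 1 away from stable condensin II.

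Seen from condensin II, the same order held with the subunits. Stable regions of the 2 subunits, joined where they overlapped, numbered 31774, and 1101 of them (3.47%) held a WT-only TFIIIC region. Among the 5710 with both subunits it was 9.35% (95% exact interval 8.61 to 10.1), against 1.65% (1.33 to 2.01) with an Rb1L/L-only region. Among the 3066 with CAP-D3 alone it was 4.60% (3.88 to 5.40) against 2.02% (1.55 to 2.58). Among the 22998 with CAP-H2 alone it was 1.85% (1.68 to 2.03) against 2.305% (2.11 to 2.51), so there the Rb1L/L-only regions were the more frequent.

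**Figure D1:**
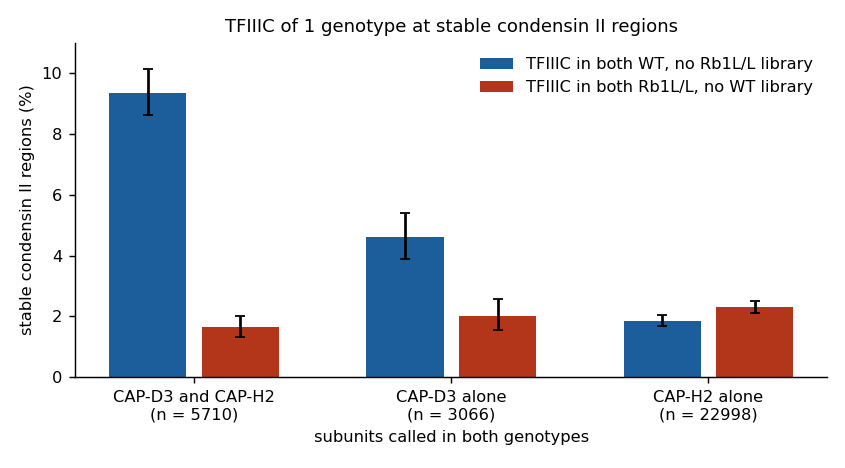
Share of stable condensin II regions (vertical axis, %) that held a WT-only (blue) or an Rb1L/L-only (red) TFIIIC region, by the subunits called in both genotypes; bars are shares with 95% exact binomial intervals. The blue bar stands at 9.35% for regions of both subunits and at 1.85% for CAP-H2 alone, where the red bar is the higher one.

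The WT-only share was also read by the strength of condensin II. Stable CAP-D3 regions were cut into 4 equal classes by the lower of their WT and Rb1L/L scores. From the weakest to the strongest class, WT-only TFIIIC was at 5.62%, 6.11%, 8.92% and 8.65% of them, and Rb1L/L-only TFIIIC at 1.20%, 1.52%, 1.03% and 1.34%. The WT-only share was the larger in each class, by 4.03 to 8.70 times. At stable CAP-H2 regions the WT-only shares were 1.98%, 2.28%, 3.19% and 5.89% and the Rb1L/L-only shares 1.78%, 2.05%, 1.79% and 2.91%. The classes of each subunit include regions that also had the other subunit. At CAP-H2 alone, Rb1L/L-only regions were the more frequent, as given above, and score classes were not read there. The 95% exact intervals of the WT-only and Rb1L/L-only shares overlapped in the weaker 2 of the CAP-H2 classes and in none of the CAP-D3 classes. The share with TFIIIC of all 4 libraries was higher in the strongest class as well, at 21.8% against 13.2% in the weakest for CAP-D3 and 23.3% against 9.99% for CAP-H2, so the increase was not particular to WT-only regions. Stronger regions of both subunits were wider. The median width was 1459.5 bp in the strongest and 833 bp in the weakest class for CAP-D3, and 1629 and 916 bp for CAP-H2. A wider region can meet more peaks, and the part of width in these shares was not tested.

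**Figure D2:**
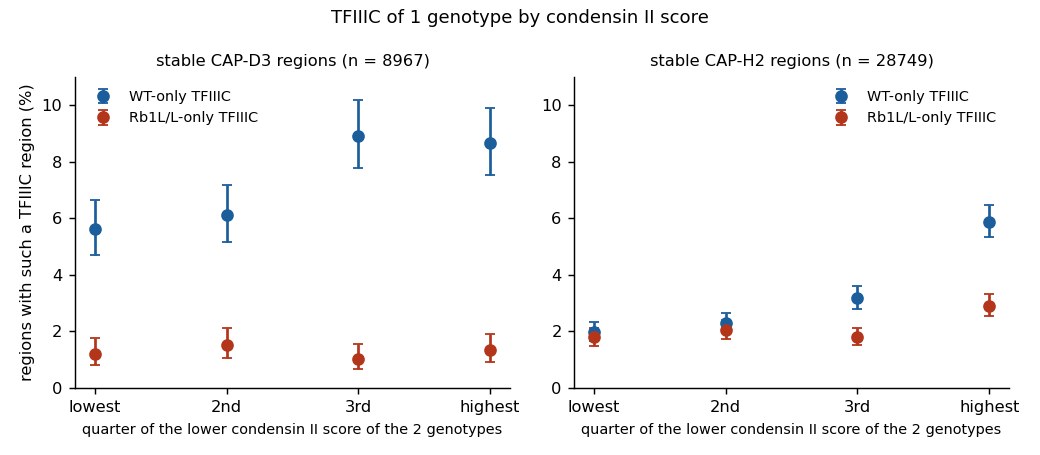
Share of stable CAP-D3 regions (left) and stable CAP-H2 regions (right) with a WT-only (blue) or Rb1L/L-only (red) TFIIIC region (vertical axis, %), in 4 equal classes of the lower condensin II score of the 2 genotypes; error bars are 95% exact binomial intervals. Blue lies above red in each CAP-D3 class, from 5.62% to 8.92%, with intervals apart in the 2 strongest CAP-H2 classes. Each panel includes regions that also had the other subunit.

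A choice made with 1 library per genotype was also read in the libraries that were left aside. Those libraries did not make that choice, but all 4 libraries set the WT-only rule. WT-only regions are therefore among the regions chosen here, so these shares are not evidence separate from the count of WT-only regions. Regions with a peak in 1 WT and none in 1 Rb1L/L library were taken, and the other WT and the other Rb1L/L library were then read there, in each of the 4 ways. At stable condensin II, 4269 to 4784 regions were chosen in this way, and the other WT library had a peak in 39.5% to 44.3% of them against 24.2% to 28.7% in the other Rb1L/L library. The WT share was higher in 4 of 4 choices, by 14.7 to 15.6 percentage points. Away from stable condensin II, the same choice gave the opposite order, with 23.0% to 25.8% in WT and 35.7% to 41.8% in Rb1L/L. The mirror choice at stable condensin II, with a peak in 1 Rb1L/L and none in 1 WT library, favoured Rb1L/L in 4 of 4 choices. Its means were 51.0% in the held-out Rb1L/L and 44.3% in the held-out WT library. With 1 held-out library per genotype and the 4 choices sharing libraries, no p-value was computed.

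The held-out difference followed the subunits as well. At regions of both subunits, the other WT library had a peak in 47.3% to 59.2% and the other Rb1L/L library in 21.3% to 27.5%, a mean difference of 29.4 points. At CAP-D3 alone the means of the 4 choices were 42.9% and 20.4%, and at CAP-H2 alone 34.7% and 29.5%. In the mirror choice at both subunits, the held-out WT library had a peak in 53.5% to 56.8% of regions. The held-out Rb1L/L library had one in 37.6% to 42.9%. Rb1L/L-only regions are among the regions of each mirror choice. Its shares are therefore not evidence separate from the count of Rb1L/L-only regions. At CAP-D3 alone and CAP-H2 alone that mirror choice favoured Rb1L/L, with means of 37.5% against 48.4% and 43.5% against 52.8%.

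**Figure D3:**
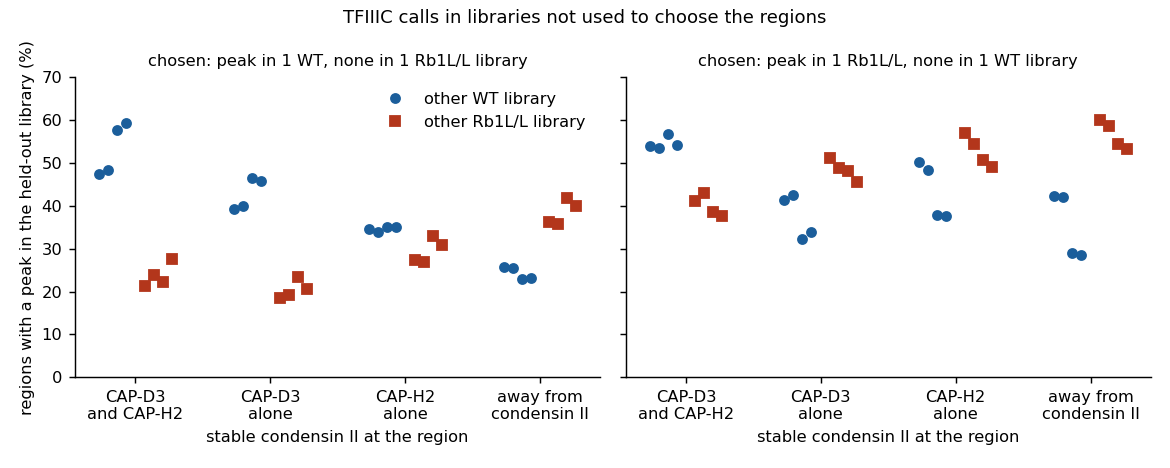
Share of regions with a TFIIIC peak in the held-out WT library (blue circles) and the held-out Rb1L/L library (red squares), for regions chosen by a peak in 1 WT and none in 1 Rb1L/L library (left) or the reverse (right), by the stable condensin II at the region; each of the 4 points per class is 1 choice of libraries. At both subunits the circles lie above the squares in both panels, and away from condensin II they lie below.

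The order was also read within classes of peak strength. WT-only regions are among the chosen regions here too, and enter each of the 4 choices. The order within classes is therefore not evidence separate from the count of WT-only regions. With the choosing WT library cut into 4 equal score classes, the held-out WT share at both subunits was the higher in 4 of 4 choices in each class. Its means were 42.6%, 50.7%, 61.3% and 76.4% from the weakest to the strongest class, against 17.4%, 21.3%, 27.1% and 41.9% in Rb1L/L. At CAP-D3 alone the WT share was likewise the higher in 4 of 4 choices in each class. At CAP-H2 alone it was the higher in 4 of 4 choices in the 3 weaker classes and in 3 of 4 in the strongest, where the means were 58.6% and 49.7%. Away from condensin II the Rb1L/L share was the higher in every class and choice, with means of 32.0% to 57.7% against 22.0% to 35.9%.

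Around stable regions of both condensin II subunits, TFIIIC peaks formed a hill in WT and a trough in Rb1L/L. At the midpoint of the 5710 regions of both subunits, a TFIIIC peak was present in 31.3% and 25.5% of regions in the WT libraries and in 13.3% and 11.1% in the Rb1L/L libraries. At a distance of 5 kb, the order was reversed, with 13.0% and 17.2% in WT and 21.9% and 22.1% in Rb1L/L. The midpoint thus stood at 2.40 and 1.49 times the level at 5 kb in WT, and at 0.609 and 0.503 times in Rb1L/L. At CAP-H2 regions without CAP-D3, all 4 libraries were close at the midpoint (9.56% and 9.88% in WT, 8.49% and 8.60% in Rb1L/L). The ratio to 5 kb was 0.943 and 0.788 in WT and 0.519 and 0.521 in Rb1L/L. At CAP-D3 alone the ratios were 1.52 and 0.995 in WT and 0.400 and 0.398 in Rb1L/L. These profiles use the same TFIIIC lists and all stable regions, including those that held a WT-only TFIIIC region. Of the 5710 regions of both subunits, 534 (9.35%) held one, and there the choice fixed the order of the genotypes. How much of the midpoint difference those regions carry was not tested.

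**Figure D4:**
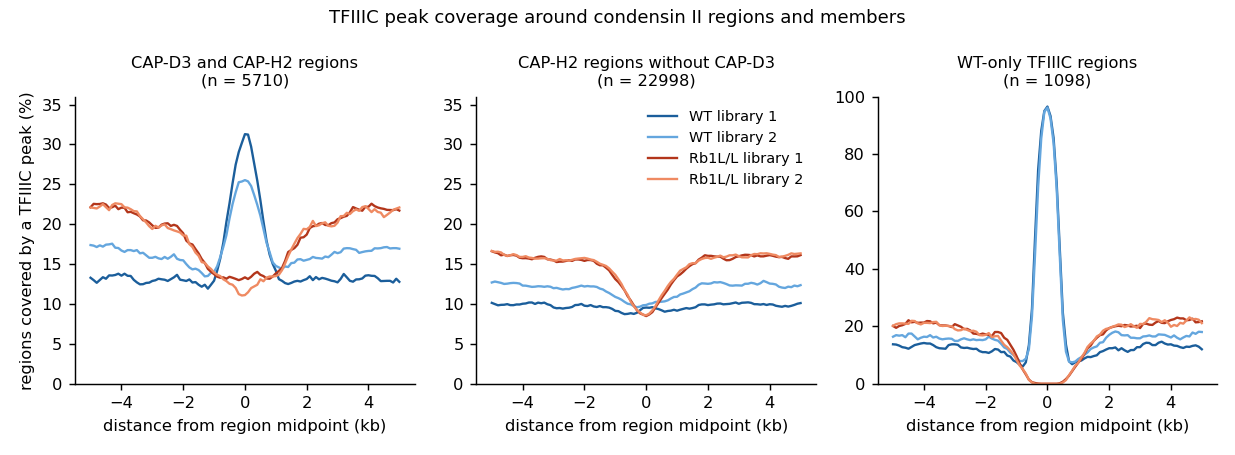
Share of regions covered by a TFIIIC peak (vertical axis, %) at distances of up to 5 kb from the region's midpoint, for stable regions of both condensin II subunits (left), of CAP-H2 without CAP-D3 (middle) and for the 1098 WT-only TFIIIC regions (right, another scale, where the centre is fixed by the choice of regions); each line is 1 library. On the left the WT lines reach 31.3% and 25.5% at the midpoint while the Rb1L/L lines are at 13.3% and 11.1%, below their own level of about 22.0% at 5 kb.

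The WT-only regions lay close to the centre of the condensin II regions. The midpoints of TFIIIC and stable CAP-D3 were a median of 289 bp apart (quartiles 140 and 489 bp, 649 regions), and those of TFIIIC and CAP-H2 a median of 332 bp (158 to 619 bp, 955 regions). The median overlap with CAP-D3 was 770 bp, which covered 83.7% of the TFIIIC region, and 12 regions overlapped CAP-D3 by less than 100 bp. Rb1L/L-only regions, of similar width, touched stable CAP-D3 farther out. Their midpoints were a median of 678 bp apart and they overlapped by 280 bp, covering 31.8% of the TFIIIC region, in 115 regions. Over all TFIIIC peaks at stable CAP-D3, whether or not they belonged to a WT-only region, the median offset was 369 and 423 bp in the WT libraries and 567 and 580 bp in the Rb1L/L libraries. Peaks within 250 bp of the CAP-D3 midpoint numbered 1408 and 1082 in WT and 454 and 441 in Rb1L/L, out of 3983, 3672, 2450 and 2396.

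The surroundings of the WT-only regions held TFIIIC peaks in both genotypes. Within 10 kb of the midpoint, leaving out the region itself, 89.1% and 89.4% of the regions had a further peak in the WT libraries and 92.4% and 92.3% in the Rb1L/L libraries. Those flanks held a mean of 3.14 and 3.68 peaks per region in WT and 3.99 and 3.99 in Rb1L/L. Rb1L/L calls were thus missing from the regions, by the choice, and present in most of their neighbourhoods. This was not particular to them. WT-only regions away from stable condensin II had a flank peak at 88.4% and 88.1% in the Rb1L/L libraries. Their nearest Rb1L/L peak lay a median of 1234 bp away, and within 1 kb for 44.4%. At the 1098 WT-only regions at condensin II, the nearest Rb1L/L peak lay a median of 1381 bp away (quartiles 567 and 3301 bp). It lay within 1 kb for 446 of the 1098 (40.6%). The nearest region called in all 4 libraries lay within 10 kb of 707 of the 1098 (64.4%), at a median of 5723 bp. Other WT-only regions at condensin II, far fewer than the peaks of a list, lay farther away. Their spacing was not compared with that of an equal number of other regions. The nearest lay within 10 kb for 54 of the 1098 (4.92%) and at a median of 399883 bp, and 12 stable condensin II regions held 2 of them.

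In peak score the WT-only regions were modest members of their lists. The median TFIIIC score was 146 in WT library 1 (quartiles 99.8 and 230.02) and 222 in WT library 2 (159 and 336), below the medians of all peaks on these chromosomes, 172 and 289. Scores ran up to 889 and 1538, while 276 regions scored under 100 in library 1 and 43 in library 2. The score was higher in library 2 at 802 of the 1098, which goes with the higher scores of that list as a whole. WT-only regions away from condensin II had similar medians of 147 and 232, and those of all 4 libraries at condensin II had 282 and 558. By subunit, the median of the lower WT score was 140 with both subunits, 131 with CAP-D3 alone and 123 with CAP-H2 alone. The choice asked for condensin II in both genotypes, which favours strong peaks. Where a subunit had a peak, the median score was 1180 (WT) and 1770 (Rb1L/L) for CAP-D3 and 324 and 459 for CAP-H2, in the order of the genotypes. The TFIIIC regions of all 4 libraries at stable condensin II, chosen in the same way, had medians of 960 (WT) and 1455 (Rb1L/L) for CAP-D3 and 349 and 467 for CAP-H2.

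**Figure D5:**
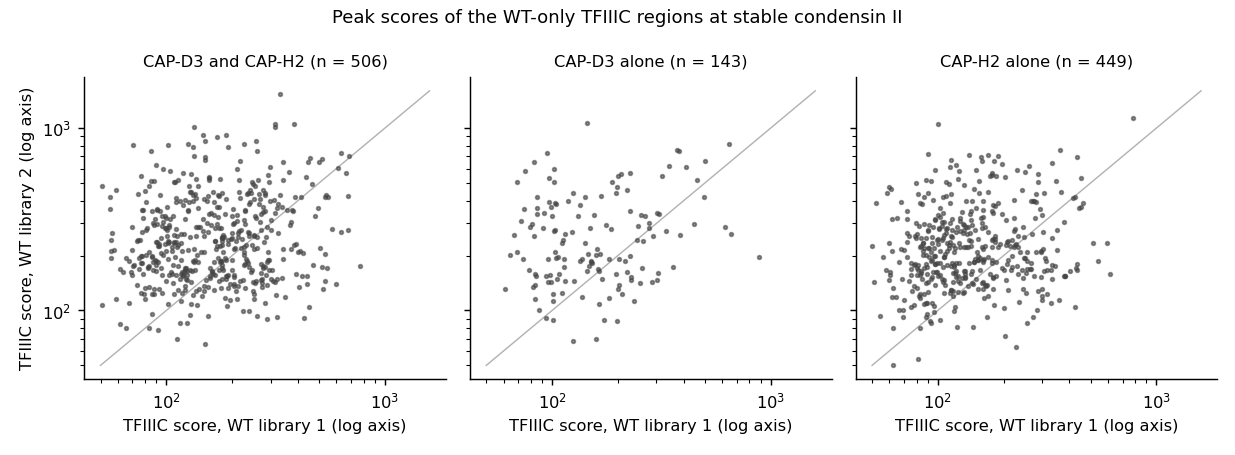
TFIIIC peak scores of the WT-only regions in WT library 1 (horizontal, log axis) and WT library 2 (vertical, log axis), with both subunits (506 regions), CAP-D3 alone (143) and CAP-H2 alone (449); each point is 1 region and the grey line marks equal scores. Most points lie above the line, and the 3 panels span similar ranges.

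The highest-scoring regions differed in their condensin II. The region with the highest lower WT score, on chromosome 10 from 84038762 to 84040664, scored 784 and 1131 in the WT libraries. It had CAP-H2 alone, at scores of 121 (WT) and 107 (Rb1L/L), so its TFIIIC peaks were strong and its condensin II weak. The region on chromosome 17 from 34066067 to 34067974 scored 683 and 707 for TFIIIC. It had CAP-H2 at 3100 in both genotypes, a score at which many peaks tie, and CAP-D3 at 275 (WT) and 485 (Rb1L/L). The nearest Rb1L/L TFIIIC peak and the nearest region of all 4 libraries both lay 145 bp away.

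Other high-scoring regions had strong CAP-D3 peaks. On chromosome 5 from 114580061 to 114581951, TFIIIC scored 642 and 816 in WT, with CAP-D3 alone at 1396 (WT) and 1337 (Rb1L/L), and the nearest Rb1L/L TFIIIC peak was 32 bp away. On chromosome 5 from 138611823 to 138613291, TFIIIC scored 629 and 726, with CAP-D3 at 3100 in both genotypes and CAP-H2 at 320 and 748. On chromosome 19 from 41922026 to 41923237, TFIIIC scored 610 and 603, with CAP-D3 at 3100 and 2773 and CAP-H2 at 463 and 408. At these 3 regions the CAP-D3 scores were 1337 or more in both genotypes.

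A few high-scoring regions stood far from any Rb1L/L peak. The clearest was on chromosome 13 from 49747618 to 49749004, where the nearest Rb1L/L TFIIIC peak was 20035 bp away and the nearest region of all 4 libraries 49497 bp away. It scored 515 and 674 for TFIIIC in WT, and CAP-D3 scored 1791 (WT) and 3145 (Rb1L/L) there, with CAP-H2 at 3100 in both. At chromosome 4 from 88940267 to 88942077, TFIIIC scored 464 and 491 and the nearest Rb1L/L peak was 7125 bp away, with CAP-D3 at 3100 in both genotypes and CAP-H2 at 97.1 (WT) and 456 (Rb1L/L). At chromosome 10 from 41238599 to 41240066 it was 4515 bp away, with TFIIIC at 503 and 656, CAP-D3 at 1132 and 1935, and CAP-H2 called in Rb1L/L (219) and not in WT.

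The strongest condensin II sites among the WT-only regions carried ordinary TFIIIC peaks. On chromosome 12 from 70397218 to 70398603, all 4 condensin II libraries scored 3100 and TFIIIC scored 246 and 508 in WT, with an Rb1L/L TFIIIC peak 26 bp outside. On chromosome 3 from 145315257 to 145316829, with the same condensin II scores, TFIIIC scored 258 and 145. On chromosome 1 from 99665942 to 99666838 it scored 156 and 134, and the nearest Rb1L/L peak lay 3401 bp away. Among these sites the WT libraries were farthest apart on chromosome 11 from 70816857 to 70818212, at 601 and 140.

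The edge of the choice was set by the lowest score a list reports. Just inside it, chromosome 9 from 96681396 to 96682110 scored 50.0 in WT library 1 and 225 in WT library 2, and chromosome 3 from 30692167 to 30693103 scored 50.8 and 482. Just outside, chromosome 11 from 32259981 to 32261103 scored 258 and 168 in WT and 50.1 in Rb1L/L library 1, and chromosome 2 from 30836741 to 30838109 scored 96.2 and 211 in WT and 51.4 in Rb1L/L library 1. There were 1234 regions at stable condensin II with a peak in both WT and 1 Rb1L/L library, and the Rb1L/L score was under 100 at 201 of them (16.3%). The median Rb1L/L score at these regions was 163. They were chosen by a reported Rb1L/L peak. Their scores therefore do not show how near the limit Rb1L/L signal lay at the WT-only regions. When TFIIIC scores had to be at least 100, 795 of the 1098 regions overlapped a WT-only region at stable condensin II (72.4%).

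H3K27me3, the mark of Polycomb repression and the antibody that the choice of regions did not use, was rare at the WT-only regions. It overlapped 8 and 15 of the 1098 in the WT libraries and 27 and 19 in the Rb1L/L libraries, a mean of 1.05 ± 0.45% in WT and 2.09 ± 0.52% in Rb1L/L (SD, n = 2). Both Rb1L/L libraries lay above both WT libraries, and the exact permutation test (two-sided) gave p = 0.333, the smallest that 2 against 2 libraries can give. All stable condensin II regions together gave 2.59 ± 0.62% in WT and 3.55 ± 0.53% in Rb1L/L (SD, n = 2, exact permutation p 0.333), a difference of 0.963 points against 1.05 points at the WT-only regions. With the same number of H3K27me3 peaks from each library the latter difference was 0.182 points. The Rb1L/L lists of H3K27me3 held 43951 and 56396 peaks and the WT lists 24741 and 45979, and the part of list length in the difference was not tested further.

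Most WT-only regions, 1054 of 1098 (96.0%), had no H3K27me3 peak in any of the 4 libraries. A peak in at least 1 was found at 4.01% (95% exact interval 2.93 to 5.34), against 6.54% (5.85 to 7.29) of the TFIIIC regions of all 4 libraries at condensin II and 8.35% (7.66 to 9.08) of WT-only regions away from it. For all stable condensin II regions it was 5.71% (5.46 to 5.97), and for the Rb1L/L-only regions at condensin II, the closest in width, 4.69% (3.23 to 6.55), an interval that overlaps that of the WT-only regions. H3K27me3 was called in all 4 libraries at 5 regions. Among them, chromosome 17 from 28216280 to 28217339 had H3K27me3 scores of 497 and 308 in WT and 709 and 603 in Rb1L/L, with TFIIIC at 156 and 333 and CAP-D3 alone at 2273 (WT) and 1932 (Rb1L/L). Chromosome 7 from 144504702 to 144506144 had H3K27me3 at 148 and 126 in WT and 3100 and 362 in Rb1L/L, with TFIIIC at 140.0 and 482 and both subunits. The 5 regions were 0.455% of the 1098, against 1.47% of all stable condensin II regions with H3K27me3 in all 4 libraries.

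The WT-only regions were spread over all 19 chromosomes used. They made up 1.12% of the 97705 TFIIIC regions called in both WT libraries, and between 0.844% (chromosome 14) and 1.37% (chromosome 10) on single chromosomes. Chromosome 5 had the most, 98, and also the most per 100 stable condensin II regions, 5.01 against 3.46 for all chromosomes together. Chromosomes 2 (87) and 11 (74) followed in number. They outnumbered the Rb1L/L-only regions at condensin II on 18 of the 19 chromosomes, and on chromosome 14 there were 35 of each.

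Of the 750 windows of 1 Mb that held any, 505 held 1 and 2 held 6. The other 593 of the 1098 regions (54.0%) shared their window with at least 1 more. The fullest windows were chromosome 17 from 24000001 to 25000000, with 6 among 34 stable condensin II regions and 1 Rb1L/L-only region, and chromosome 5 from 121000001 to 122000000, with 6 among 19 and no Rb1L/L-only region. Chromosome 11 from 20000001 to 21000000 held 5 among 25, with 1 Rb1L/L-only region.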

How the data were processed

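Of 20 samples, the 12 immunoprecipitated ones have a peak list each, and the 8 inputs have none here. Per the submitters' processing notes, the tools were Bowtie2 2.3.0 and MACS 1.4.0rc2 on mm9, with neither settings nor order given. The authors deposited 1 list per library with an unnamed score per peak. From its range and the peak names it was read as the score that MACS derives from a p-value. The lowest scores were 50.0 to 50.4. Per the labels, the condensin II libraries of a genotype share their input with 1 H3K27me3 library. Read numbers are not given in the sources used here; lists from more reads tend to be longer.

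Peaks were merged, classed and counted in Python 3.11.15 with pandas 2.3.3 (code tested on simulated peaks of known class), with exact binomial (Clopper-Pearson) 95% intervals from SciPy 1.17.1, which cover counting error alone. Libraries are not stated to be separate cultures, so p-values measure the spread between libraries, which may be technical. The test was a two-sided exact permutation over libraries. No sequence or gene was assigned, since mm9 sequence and annotation were not used here. Coordinates are 1-based. The regions and comparisons were chosen with earlier results of these data known. Named regions were the 10 best by the lower WT score, the 5 best by condensin II, the 3 best per single subunit, those with H3K27me3 in all 4 libraries, the 3 widest, those beside the limit, and the fullest chromosomes and windows; the leading ones are printed.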

Additional observations from a re-analysis of the deposited data

How the results depend on the processing

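Leaving out 1 TFIIIC library relaxes the rule by construction. The number of WT-only regions was then 1722 to 3586, their share of stable condensin II regions 5.38% to 10.9%, the ratio to Rb1L/L-only regions 0.975 to 2.297 (4.61 to 8.79 at regions of both subunits), the share with both subunits 34.02% to 44.6%, and that with CAP-H2 alone 44.3% to 54.4%. With other settings the number stayed between 872 and 1397. The share of stable condensin II regions was 3.02% at a TFIIIC score of at least 100, 4.11% at a condensin II score of at least 100, 2.95% with gaps of up to 1 kb, 3.002% with at least 50% of the shorter region covered and 4.41% with equal numbers of TFIIIC peaks. The ratio to Rb1L/L-only regions was 0.993 with gaps of up to 1 kb, 2.75 at 50% and 5.70 at equal numbers, and at both subunits 4.22, 33.2 and 59.4. At a condensin II score of at least 100, both subunits were at 41.9%, CAP-D3 alone at 21.6% and CAP-H2 alone at 36.5%; with gaps, CAP-H2 alone was at 44.2%. Of the 1098 regions, 592 overlapped a WT-only region with gaps of up to 1 kb and 692 one at equal numbers. The mean held-out difference was 13.7 points at a TFIIIC score of at least 100, 23.3 at equal numbers and 9.75 with gaps, and at both subunits 39.6 at equal numbers. Apart from the construction just named, the cause of these shifts was not tested. The H3K27me3 difference was 0.182 to 1.82 points in the same direction, with exact permutation p of 0.333 to 0.667; with the replicate block it was 1.05 points (exact sign-flip p 0.5, the smallest 2 pairs allow). Same-numbered libraries deviated together over 1 Mb windows with a correlation of 0.288 for H3K27me3 and 0.293 for TFIIIC, but no label says that the numbers pair them. The ratio, its values at both subunits, the subunits without single TFIIIC libraries and the held-out values at both subunits were added after seeing the data. Unknown read depth limits all counts of peaks.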

Other observations

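On chromosome X, which the choice of regions left out, 1 region met the same rule and 6 were Rb1L/L-only at stable condensin II, among 169 TFIIIC regions there that overlapped stable condensin II. Unplaced sequences held 12 WT-only TFIIIC regions and no stable condensin II region. Of the 86 autosomal places with a peak in all 12 lists, 1 overlapped a WT-only region at stable condensin II. Among the 5929 WT-only TFIIIC regions away from stable condensin II, 194 (3.27%, 95% exact interval 2.83 to 3.76) had a condensin II peak in at least 1 library, none of them stable.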
